A study of Mus musculus with 8 samples.

Results

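The genes described here are 45 genes of the lysosome, out of 46517 genes measured by RNAseq in cultured mouse osteoclasts. They were chosen by name, with earlier results of these data known. The list holds acid hydrolases and their cofactors, among them tartrate-resistant acid phosphatase (TRAP, *Acp5*). It also holds proteins and transporters of the lysosomal membrane, and receptors and regulators that sort or control lysosomal proteins. Cathepsins and subunits of the proton pump (V-ATPase) are not on the list. All 45 were found by their Ensembl identifiers, and all 45 passed the filter on low values.

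Osteoclasts were grown from bone marrow of mice 6 to 8 weeks old, in medium with 10% L929 cell conditioned medium as the source of macrophage-colony-stimulating factor. GST-RANKL was given at 50 ng/ml, over 7 days. RANKL is the cytokine that turns macrophage precursors into osteoclasts. 4 libraries came from *Elmo1*-/- mice, in which the deletion is global and so present in every cell of the animal, and the other 4 from *Elmo1*+/- mice, which keep 1 intact copy and were the controls. ELMO1 is a cytoplasmic adapter protein in signaling to the actin cytoskeleton. The controls are titled wild-type, but their genotype labels read *Elmo1*+/-, and that name is used here. Each library is 1 mouse, numbered 1 to 4 within its genotype, and all 8 cultures had the same treatment. The comparison asks which genes *Elmo1* loss changes in mature osteoclasts.

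Lysosomes are the acidic organelles in which cells break down proteins, sugars and lipids. Most of their soluble enzymes receive a mannose 6-phosphate tag in the Golgi apparatus, and mannose 6-phosphate receptors carry the tagged enzymes to the lysosome. In osteoclasts, secretory lysosomes fuse with the membrane that faces the bone, the ruffled border, and release acid and enzymes such as TRAP onto the matrix. Many lysosomal genes are under the control of the transcription factor TFEB, which binds a palindromic E-box, the CLEAR element, in their promoters.

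The libraries held between 20905502 and 40846651 reads on genes. *Elmo1* lay between 274 and 316 normalized counts in *Elmo1*-/- and between 1423 and 1769 in *Elmo1*+/- osteoclasts (log2 fold change −2.44, SE 0.09, adjusted p = 8.4e-06 by limma, n = 4 mice per genotype). A normalized count is the reads on a gene divided by the size factor of its library. The first principal component held 62.3% of the variance and set the 4 libraries numbered 1 and 2 apart from the 4 numbered 3 and 4. On it *Elmo1*-/- mouse 2 stood in between, at −6.03. The rest of libraries 1 and 2 lay between −52.3 and −23.1, and libraries 3 and 4 between 24.6 and 31.9. No label gives the meaning of the numbers, and each side holds 2 mice of each genotype. Summed as counts per 1000000 reads, 12 osteoclast markers (*Acp5* and *Ctsk* among them) lay between 14143 and 21776 in libraries 1 and 2 and between 34144 and 38438 in libraries 3 and 4. The 10 macrophage markers, among them *Cd68*, lay between 8036 and 9723 and between 6283 and 7629, so they were present in all 8 cultures. Neutrophil markers summed to between 613 and 902, and erythroid and mast cell markers to at most 0.246, with *Hbb-bs* and *Mcpt4* at 0 in every library. Dendritic cell markers reached at most 5.21 with *Cd209a* at 0, lymphocyte markers at most 7.10 with *Cd3g* at 0, and osteoblast and stroma markers at most 38.3.

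A CLEAR-type palindrome was searched for in the promoters of these genes and in all promoters. In the RefSeq promoter table (build GRCm38.p6, 250 bases before to 50 bases after each transcription start), 40 of the 45 genes had a sequence. On either strand, the 8 letters TCACGTGA were present in 4 of these 40 genes (10.0%) and in 1.12% of all 27025 genes of the table. The 7 letters TCACGTG, which the 8 contain, were present in 11 genes (27.5%) against 4.29%. The core CACGTG was present in the same 11 (27.5%) against 8.09%. These 11 were *Arsa*, *Cln3*, *Gaa*, *Gla*, *Glb1*, *Igf2r*, *Lamp1*, *Lgmn*, *Mcoln1*, *Naglu* and *Sgsh*. The 8-letter matches of the 4 genes with the full palindrome and the 4 shorter matches of *Lamp1* (chosen after its matches were seen) are shown because these letters are what the counts rest on. *Cln3* and *Mcoln1* each hold a further 7-letter match that is not shown. Each line runs 5′ to 3′ on the strand of the gene, capitals mark the match, and up to 10 bases on either side are in lower case.
*Cln3*, chr7:126583341-126583368, minus strand: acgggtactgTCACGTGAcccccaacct
*Gla*, chrX:134601216-134601243, minus strand: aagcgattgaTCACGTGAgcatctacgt
*Gla*, chrX:134601183-134601210, minus strand: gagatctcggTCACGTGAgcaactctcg
*Igf2r*, chr17:12769738-12769765, minus strand: aacgaggacgTCACGTGAgcaggaggcg
*Igf2r*, chr17:12769707-12769724, minus strand: ccgactcaggTCACGTGA
*Mcoln1*, chr8:3500463-3500490, plus strand: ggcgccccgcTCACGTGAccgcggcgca
*Lamp1*, chr8:13159089-13159160, plus strand: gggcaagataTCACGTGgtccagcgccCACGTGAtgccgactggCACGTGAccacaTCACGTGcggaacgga
The 8-letter match begins 122 bases before the RefSeq start of *Cln3*, 46 before that of *Mcoln1*, 228 and 195 before that of *Gla*, and 49 and 8 before that of *Igf2r*. In GENCODE mouse release M21, the *Cln3* and *Mcoln1* windows fall in exons, in the UTR of longer transcripts of the same gene. Both *Gla* windows lie in the UTR of *Hnrnph2*, which is transcribed the other way, the *Igf2r* windows within the antisense gene *Airn* but in none of its exons, and the *Lamp1* window in no annotated gene. A match is a description of the letters and not a measured binding site.

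Several lysosomal genes were among the most abundant transcripts of these osteoclasts. Per kilobase of exon, the levels of the 45 genes spanned 912-fold, from 92.7 normalized counts for *Tfeb* to 84532 for *Psap*. Of the 14096 tested genes with a length, *Psap* ranked 11, *Acp5* 13, *Cd68* 60, *Lamp1* 63 and *Grn* 74. These were the 5 members within the highest 100 genes, 18 were within the highest 1000, and 44 of 45 lay above the median gene. Together the 45 genes took 2.93% ± 0.310 (SD, n = 4) of the reads on genes in *Elmo1*-/- and 2.98% ± 0.105 in *Elmo1*+/- osteoclasts. The share was lowest in *Elmo1*-/- mouse 2, at 2.49%, and highest in *Elmo1*-/- mouse 4, at 3.18%, so the controls lay inside the range of the knockouts. Without *Acp5* and *Psap* it was 1.72% ± 0.113 and 1.70% ± 0.0495.

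**Figure D1:**
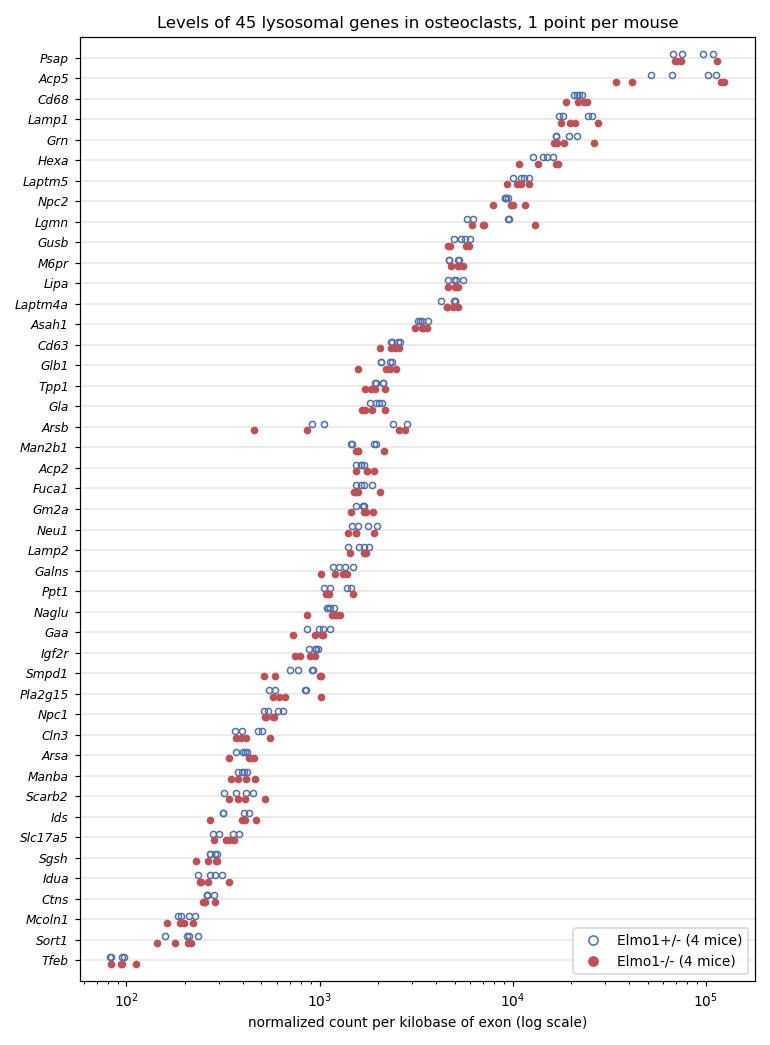
Levels of the 45 genes in normalized counts per kilobase of exon (log scale), 1 point per mouse, filled for *Elmo1*-/- and open for *Elmo1*+/- (4 mice each), ordered by the mean over the 8 libraries. The points of the genotypes overlap in every gene, and *Arsb* and *Acp5* spread most widely.

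None of the 45 genes passed the test between *Elmo1*-/- and *Elmo1*+/- osteoclasts. With limma on log2(normalized count + 1), 0 of 45 passed an adjusted p of 0.05 and 0 of 45 an unadjusted p of 0.05. Over all 14139 genes tested, 0.00707% passed the first, which is *Elmo1* alone, and 0.941% the second. This fit kept the difference between libraries 1 and 2 and libraries 3 and 4 in its spread. With the replicate number as a block, 389 of the 14139 genes passed an unadjusted limma p of 0.05. With the side of the split as a term 411 did, and 0 of the 45 in either fit. The quasi-likelihood test of edgeR and the Wald test of DESeq2 on the recovered reads also called 0 of 45, adjusted or not. The ranges of the genotypes did not separate for any of the 45, against 0.941% of all genes tested. The smallest unadjusted p was 0.105, for *Igf2r*, and the adjusted p was 1.00 after rounding for all 45. By an exact two-sided permutation test over 4 and 4 mice the smallest p was 0.143, where the design allows 0.0286.

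The differences themselves were small. The median log2 fold change of the 45 genes was −0.02, beside −0.00 for all genes tested, with 17 above 0 and 28 below. Without 1 mouse at a time this median ran from −0.08 (without *Elmo1*+/- mouse 4) to 0.01 (without *Elmo1*-/- mouse 2), and it was −0.06 without *Elmo1*-/- mouse 1. It was under 0.1 in size for 37 genes and under 0.2 for 43, and its median size was 0.06, as for all genes tested. The 95% confidence interval lay within ±0.5 on the log2 scale, a 1.41-fold change, for 39 genes, so changes beyond that size lay outside the intervals of those genes. The other 6 were *Acp5*, *Arsb*, *Lgmn*, *Pla2g15*, *Psap* and *Smpd1*, and for *Acp5* and *Arsb* the interval also passed a 2-fold change. With the replicate number as a block it did not, and ran from −0.72 to 0.28 for *Acp5* and from −0.95 to 0.35 for *Arsb*. In these bulk cultures, fewer cells of a type and less RNA per cell cannot be told apart.

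**Figure D2:**
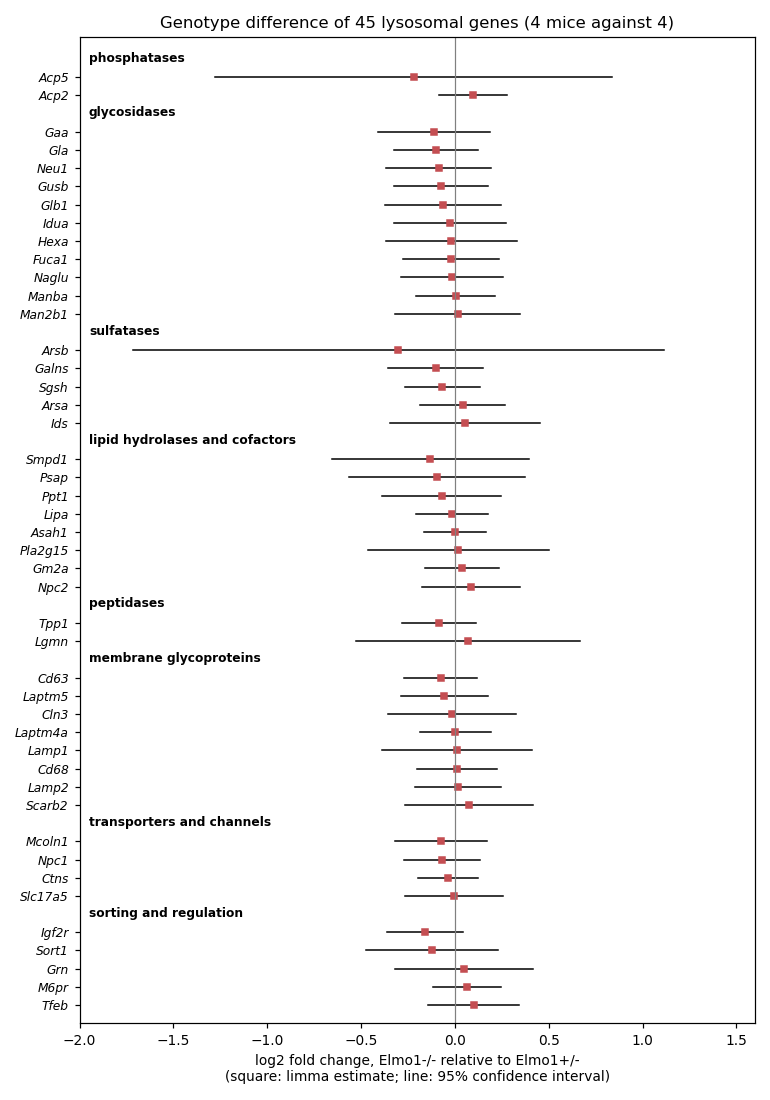
Log2 fold change of each of the 45 genes, *Elmo1*-/- relative to *Elmo1*+/- (squares, limma estimate from 4 mice against 4) with its 95% confidence interval (lines), grouped by role. Every interval includes 0, and those of *Acp5* and *Arsb* are the widest.

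Of the phosphatases, *Acp5* (ENSMUSG00000001348, GRCm38 chr9:22126727-22135711, minus strand) encodes TRAP, the enzyme whose stain marks osteoclasts, and *Acp2* the lysosomal acid phosphatase. *Acp5* stood at 69893, 84614, 253274 and 244378 normalized counts in *Elmo1*-/- mice 1 to 4. In *Elmo1*+/- mice 1 to 4 it stood at 134881, 105059, 227954 and 207897. The libraries numbered 3 and 4 were the high ones in both genotypes, and the knockouts held both the lowest and the highest value. The log2 fold change by limma was −0.22 (SE 0.47, 95% interval −1.28 to 0.84). On the recovered reads it was −0.05 with edgeR and with DESeq2. The limma value turned to 0.11 without *Elmo1*-/- mouse 1 and to 0.02 without *Elmo1*-/- mouse 2. *Acp2* varied little, between 8026 and 9952 in the knockouts and between 8003 and 8827 in the controls (0.10, SE 0.08, interval −0.08 to 0.28).

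The 11 glycosidases, which cut sugars from glycoproteins, glycolipids and matrix glycans, had a median log2 fold change of −0.03. Their levels ran from 273 normalized counts per kilobase for *Idua* (α-L-iduronidase) to 14562 for *Hexa* (the α subunit of β-hexosaminidase). *Gusb* (β-glucuronidase) at 5376 and *Glb1* (β-galactosidase) at 2180 followed *Hexa*. *Gla* (α-galactosidase A), *Man2b1* (lysosomal α-mannosidase), *Fuca1* (α-fucosidase) and *Neu1* (sialidase) lay between 1654 and 1920 per kilobase. *Naglu* (α-N-acetylglucosaminidase), *Gaa* (acid α-glucosidase) and *Manba* (β-mannosidase) lay at 1127, 972 and 401. The highest library was at most 1.59 times the lowest in each of the 11.

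The 5 sulfatases remove sulfate from glycosaminoglycans or sulfatide and had a median log2 fold change of −0.07. *Arsb* (arylsulfatase B, which acts on dermatan and chondroitin sulfate, at GRCm38 chr13:93771630-93943016, plus strand) varied most of all 45 genes. It was at 2762, 5202, 15545 and 16653 normalized counts in *Elmo1*-/- mice 1 to 4. It was at 6332, 5495, 17018 and 14538 in *Elmo1*+/- mice 1 to 4. As with *Acp5*, the libraries numbered 3 and 4 were high in both genotypes, and the highest library was 6.16 times the lowest. The log2 fold change by limma was −0.30 (SE 0.62, interval −1.72 to 1.11), and 0.20 without *Elmo1*-/- mouse 1. On the recovered reads of all 8 libraries it was −0.11 with edgeR and with DESeq2. *Galns* (galactosamine-6-sulfatase), *Arsa* (arylsulfatase A), *Ids* (iduronate-2-sulfatase) and *Sgsh* (sulfamidase) lay at 1276, 407, 376 and 275 per kilobase, and their highest libraries were 1.28 to 1.72 times the lowest.

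Among the 8 lipid hydrolases and their cofactors the median log2 fold change was −0.01. *Psap* (GRCm38 chr10:60277627-60302597, plus strand), the precursor of the saposins that present sphingolipids to their hydrolases, had 311651, 194412, 188815 and 203866 normalized counts in *Elmo1*-/- mice 1 to 4. The controls had 299498, 265397, 207475 and 184532. *Elmo1*-/- mouse 1 and *Elmo1*+/- mice 1 and 2 were high, and the genotypes overlapped (−0.10, SE 0.21, interval −0.57 to 0.37, and 0.02 without *Elmo1*+/- mouse 1). *Smpd1*, the acid sphingomyelinase, had 1969, 1728, 3364 and 3410 in the knockouts and 2584, 2332, 3032 and 3067 in the controls. The knockouts again held both ends of the range (−0.13, SE 0.23, interval −0.65 to 0.39, and 0.05 without *Elmo1*-/- mouse 2). *Pla2g15*, a lysosomal phospholipase, ran from 1736 to 3080 in the knockouts and from 1640 to 2568 in the controls (0.02, SE 0.21). *Npc2*, which hands cholesterol to NPC1, ran from 43154 to 63266 and from 49302 to 51397 (0.08, SE 0.12), with the lowest and the highest value in the knockouts. *Lipa* (acid lipase), *Asah1* (acid ceramidase), *Gm2a* (the GM2 activator) and *Ppt1* (palmitoyl-protein thioesterase) lay at 5021, 3383, 1672 and 1226 per kilobase, and *Asah1* and *Lipa* varied by no more than 1.16-fold and 1.21-fold over the 8 libraries.

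Of the peptidases, *Lgmn* (legumain, an asparaginyl endopeptidase) was at 30116, 16252, 14266 and 16563 normalized counts in the knockouts. It was at 22065, 22316, 14394 and 13448 in the controls. *Elmo1*-/- mouse 1 stood above all others, and the log2 fold change was 0.07 (SE 0.26, interval −0.53 to 0.66), or −0.17 without that mouse. *Tpp1* (tripeptidyl peptidase 1) lay between 8908 and 11253 over the 8 libraries.

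The 8 genes of membrane glycoproteins and other integral membrane proteins had a median log2 fold change of 0.01. *Lamp1*, a major lysosomal membrane glycoprotein, was at 74344, 56291, 47504 and 52921 normalized counts in *Elmo1*-/- mice 1 to 4 and at 68869, 65303, 48987 and 46587 in the controls. The libraries numbered 1 and 2 were the high ones in both genotypes (0.01, SE 0.18, interval −0.39 to 0.41). *Lamp2*, its paralog, kept between 13743 and 16599 in the knockouts and between 13453 and 17208 in the controls (0.02, SE 0.10). *Scarb2*, the receptor that carries glucocerebrosidase, ran from 2127 to 3268 and from 2000 to 2855 (0.07, SE 0.15). *Cln3*, a multispanning membrane protein mutated in Batten disease, ran from 2134 to 3215 and from 2096 to 2908 (−0.01, SE 0.15). The tetraspanin gene *Cd63* held 7521 to 9494 and 8662 to 9605 (−0.08, SE 0.09), and *Cd68*, a macrophage and osteoclast sialomucin, 23778 to 30636 and 26049 to 28797 (0.01, SE 0.09). None of these genes separated the genotypes. *Laptm5* and *Laptm4a*, which encode small multispanning proteins, lay at 10942 and 4812 per kilobase.

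The 4 transporter and channel genes had a median log2 fold change of −0.05. Their values ran from −0.076 to −0.0043, all small and below 0. *Npc1*, which exports cholesterol, stood between 5875 and 6535 normalized counts in the knockouts and between 5825 and 7341 in the controls (−0.07, SE 0.09). *Mcoln1*, the calcium channel TRPML1, ranged from 1219 to 1676 and from 1399 to 1702 (−0.08, SE 0.11). *Slc17a5* (the sialic acid exporter) and *Ctns* (the cystine exporter) lay at 328 and 264 per kilobase, and *Ctns*, at 844 to 970 normalized counts, had the smallest range of all 45 genes, 1.15-fold.

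The 5 genes of sorting and regulation had a median log2 fold change of 0.05. *M6pr*, the cation-dependent mannose 6-phosphate receptor, was at 19883 to 22921 normalized counts in the knockouts and 19417 to 22013 in the controls (0.06, SE 0.08). *Igf2r*, the cation-independent receptor, was at 6951, 7398, 8841 and 8262 in *Elmo1*-/- mice 1 to 4 and at 9092, 8912, 8861 and 8163 in *Elmo1*+/- mice 1 to 4. *Elmo1*-/- mice 1 and 2 were the lowest, while *Elmo1*-/- mice 3 and 4 lay within the range of the controls (−0.16, SE 0.09, interval −0.36 to 0.04). *Sort1* (sortilin, another sorting receptor) ran from 1087 to 1633 and from 1200 to 1765 (−0.12, SE 0.16, interval −0.47 to 0.23). *Grn*, the precursor of the lysosomal granulins, was at 91189, 56836, 59044 and 64012 in the knockouts and at 74536, 68093, 57952 and 58440 in the controls (0.05, SE 0.16). *Tfeb*, the regulator itself, was at 634, 472, 533 and 540 and at 551, 540, 469 and 467 (0.10, SE 0.11, interval −0.14 to 0.34). The value of *Tfeb* in *Elmo1*-/- mouse 1 was the highest, and the other 3 knockouts lay between 472 and 540, within the range of the controls. The 24 members not given a fold change above lay between −0.11 and 0.06.

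For 35 of the 45 genes (77.8%) the difference between libraries 3 and 4 and libraries 1 and 2 was larger in size than the difference between genotypes, beside 80.8% of all genes tested. All 4 libraries numbered 3 and 4 lay above all 4 numbered 1 and 2 for 7 of the 45 genes (15.6%), beside 18.1% of all genes tested. All 4 lay below for 4 (8.89%), beside 15.8%. The latter depended on the scaling. With equal library totals 8 members lay below (17.8%, beside 14.7% of all genes), and the 7 above stayed at 15.6%, beside 17.6%. The higher ones were *Arsb* (log2 difference 1.75), *Acp5* (1.28), *Smpd1* (0.59), *Ids* (0.41), *Hexa* (0.35), *Gusb* (0.25) and *Manba* (0.19). The lower ones were *Pla2g15* (−0.52), *Lamp1* (−0.43), *Scarb2* (−0.36) and *Cln3* (−0.35). *Lgmn* (−0.60) and *Psap* (−0.43) differed by as much, but 1 library of *Elmo1*-/- mouse 2 lay among those numbered 3 and 4. The median size of the difference was 0.14 for the 45 genes and 0.21 for all genes tested. These are descriptions without a test, since the split of the libraries was seen in the same data. All 12 osteoclast markers were higher in libraries 3 and 4 as well, *Acp5* being 1 of them, and 6 of 10 macrophage markers were lower. Their part in the levels of the lysosomal genes was not tested.

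**Figure D3:**
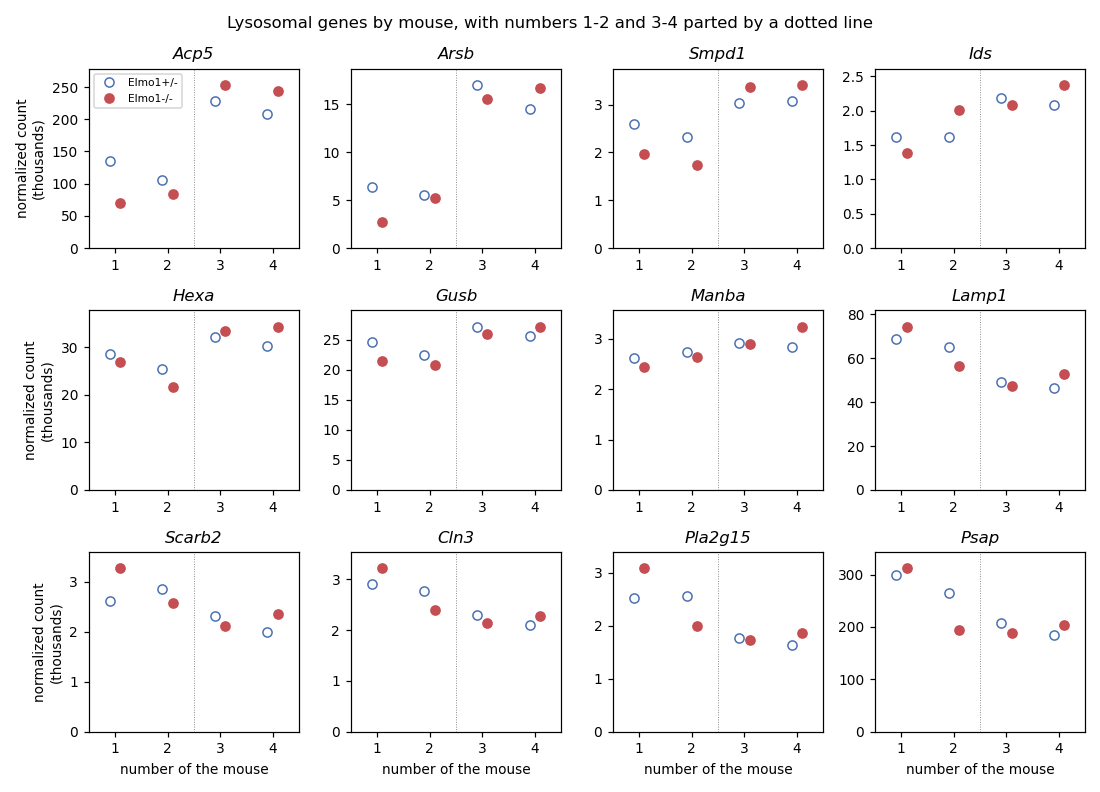
Normalized counts (in units of 1000) of 12 lysosomal genes by the number of the mouse, filled for *Elmo1*-/- and open for *Elmo1*+/-, with a dotted line between numbers 2 and 3. *Acp5*, *Arsb* and *Smpd1* step up from the left to the right of the line in both genotypes, while *Lamp1*, *Scarb2*, *Cln3* and *Pla2g15* step down.

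The genotypes were also compared within each side of this split, with 2 mice each, in 1 limma fit over the 8 libraries that was added after the data were seen. Within libraries 1 and 2, 36 of the 45 genes were lower in *Elmo1*-/- than in *Elmo1*+/- osteoclasts, with a median log2 difference of −0.10 (−0.01 for all genes tested). Within libraries 3 and 4, 38 of the 45 were higher, with a median of 0.05 (0.01 for all genes tested). The signs differed for 33 genes. The same counts were not made over all genes tested. Genes of 1 library are not independent, so these counts do not measure a shared change of the members. The 2 knockouts numbered 1 and 2 did not move together. The median member deviated from its mean over the 8 libraries by 0.12 (log2) in *Elmo1*-/- mouse 1 and by −0.16 in *Elmo1*-/- mouse 2. For 3 genes (6.67%, beside 4.07% of all genes tested), *Acp5*, *Smpd1* and *Sgsh*, the genotypes stood apart on both sides and in opposite directions. *Acp5* differed by −0.63 within libraries 1 and 2 and by 0.19 within libraries 3 and 4. *Smpd1* differed by −0.41 and 0.15, and *Sgsh* by −0.20 and 0.06. By limma, 0 of the 45 genes passed an adjusted p of 0.05 within libraries 1 and 2 (0.00707% of all genes tested), within libraries 3 and 4 (0.00707%) or for the difference between the sides (0.0%). At an unadjusted p of 0.05, 4 members passed within libraries 1 and 2 (*Acp5*, *Arsb*, *Igf2r* and *Smpd1*), beside 4.76% of all genes, and 0 within libraries 3 and 4, beside 1.04%. For the difference between the sides 3 passed unadjusted (*Acp5*, *Igf2r* and *Smpd1*), beside 2.67%. That difference was 0.82 for *Acp5* (95% interval 0.34 to 1.30), 0.56 for *Smpd1* (0.26 to 0.87) and 0.34 for *Igf2r* (0.05 to 0.62), and the adjusted limma p was 1.00 after rounding for all 45.

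Some libraries were low or high for many members at a time. *Elmo1*-/- mouse 2 was the lowest of the 8 libraries for 20 of the 45 genes (44.4%), although it was the lowest for 10.2% of all genes tested. *Elmo1*+/- mouse 4 was the lowest for 15 (33.3%, beside 11.3%). *Elmo1*-/- mouse 1 was the highest for 19 (42.2%, beside 27.1%), *Lgmn*, *Grn*, *Psap*, *Lamp1* and *Tfeb* among them, and the lowest for 7 (15.6%, beside 28.3%), among them *Acp5* and *Arsb*. The median gene of the 45 lay at 0.893 times its mean over the libraries in *Elmo1*-/- mouse 2 and at 1.09 times in *Elmo1*-/- mouse 1. The median SD within a genotype was 0.17 on the log2 scale for the 45 genes, beside 0.20 for all genes tested and 0.14 for the 7861 genes at least as abundant as the lowest member.

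**Figure D4:**
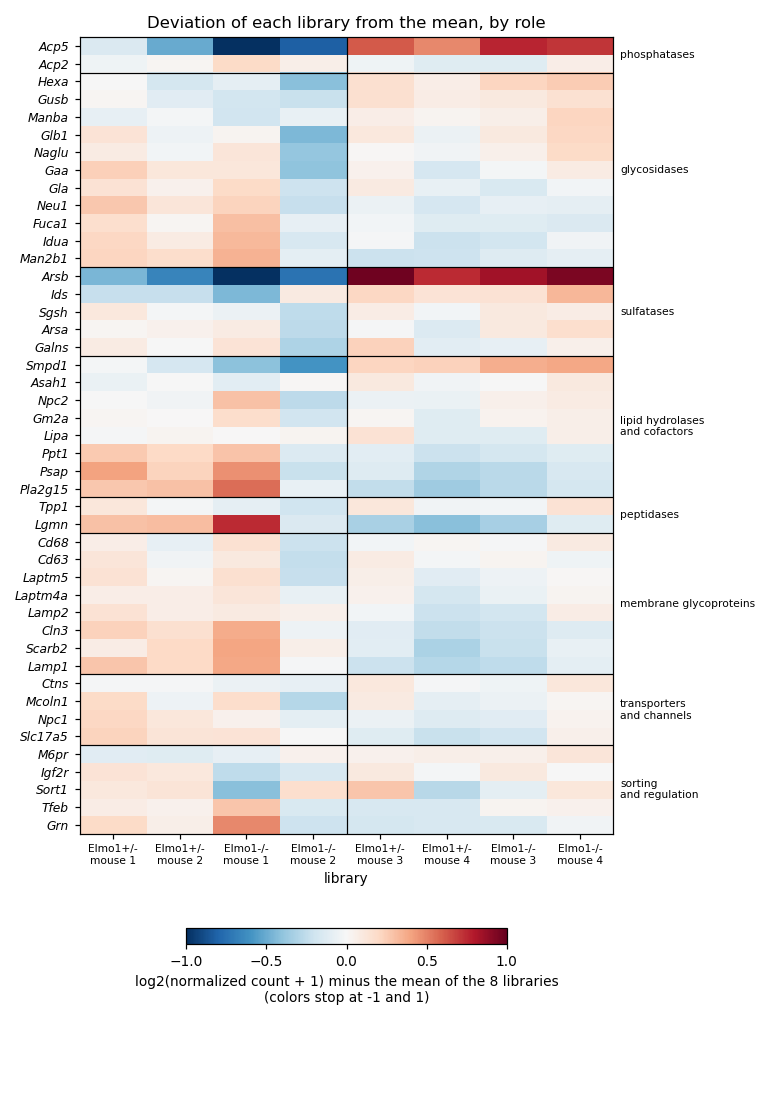
Log2(normalized count + 1) of each of the 45 genes in each library, minus its mean over the 8 libraries, in rows by role and columns by library, blue for low and red for high. Elmo1-/- mouse 2 is pale blue for most genes and holds the lowest value for 20 of 45, and *Acp5* and *Arsb* are blue in libraries 1 and 2 and red in libraries 3 and 4.

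The other genes of lysosomal biology did not pass the test either. Of 7 further lists, 0 genes were called between the genotypes by limma, adjusted or at an unadjusted p of 0.05, and none separated the genotypes. The 29 tested genes of 30 other lysosomal hydrolases had a median log2 fold change of −0.05 and the 24 of 25 other membrane proteins one of −0.04. The 13 of 14 cathepsins, most of them cysteine or aspartic proteases, had −0.00. The 19 of 25 V-ATPase subunits, which acidify the lysosome and the space under the ruffled border, had −0.09. Below 0 were 17 of the 19, a count not made over all genes tested. Of these 19 subunits, 14 were higher in libraries 3 and 4 and 1 was lower, beside 18.1% and 15.8% of all genes, with a median difference of 0.54, beside −0.02 for the 45 members. Of the other hydrolases 6 were higher and 6 lower, of the other membrane proteins 6 and 3, and of the cathepsins 1 and 5. The counts were 3 and 1 for mannose 6-phosphate sorting, 3 and 2 for the TFEB family and nutrient sensing, and 6 and 0 for secretory lysosome traffic. The 13 genes that tag and sort by mannose 6-phosphate had −0.02, the 17 of 18 genes of the TFEB family and nutrient sensing −0.03, and the 15 of 16 genes of secretory lysosome traffic in osteoclasts −0.01.

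Some members share exon sequence with another gene in the annotation, and whether the counting used strand is not given. Reads of *Ppt1* and *Cap1* (24101 to 44032 reads on *Cap1*), of *Cln3* and *Apobr* (2865 to 5919) and of *Npc1* and *Rmc1* (1682 to 3018) lie on opposite strands, and without strand in the counting they cannot be told apart where exons overlap. *Glb1* shares 165 bases with *Tmppe* on the same strand. *Lamp1*, *Acp5*, *Arsb*, *Grn*, *Acp2*, *Arsa*, *Hexa*, *Idua*, *Sgsh* and *Sort1* also overlap a gene on the other strand, each with at most 646 reads in any library or not analysed here.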

How the data were processed

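RNAseq data of osteoclasts from 4 *Elmo1*-/- and 4 *Elmo1*+/- mice were used, 1 library per mouse, grouped by the genotype labels. The authors prepared Illumina TruSeq mRNA libraries and sequenced 75 bp paired-end reads. Their processing notes name FastQC, STAR, featureCounts and DESeq2, while versions, genome build and gene annotation were not given in the sources used here. As deposited, the values are normalized signal, reads counted on a gene over the DESeq2 size factor of the library. Dividing by the smallest step of each library returned whole reads (within 0.01 of a read) for 100% of values. The deposited table also holds the authors' own comparison (fold change, error, statistic, p-values), which was not used.

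Genes were named from GENCODE mouse release M21 (GRCm38) by Ensembl identifier (46005 matched, 512 did not). Levels were compared between genes per kilobase of merged exons. Promoters came from RefSeq (GRCm38.p6).

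Genotypes were compared with limma 3.58.1 in R 4.3.3 (trend, robust) on log2(normalized count + 1), over the 14139 genes that reached 10 normalized counts in 4 or more libraries. P-values were adjusted over all of them by Benjamini-Hochberg, with a threshold of 0.05. A fold change on this scale understates that of low genes. Exact two-sided permutation tests over mice were added. The alternatives were edgeR 4.0.16 and DESeq2 1.42.0 on the recovered reads, TMM scaling and equal library totals, pseudocounts of 0.5 or 8, no filter or one at 50, omission of each mouse, the replicate number as a block, and libraries 1 and 2 against 3 and 4 as a term. The values and the limma fit within each side of that split, and of the difference between the sides, were added after the data were seen. P-values set a difference against the spread between mice cultured as described. In the main fit that spread includes the shift between libraries 1 and 2 and libraries 3 and 4.

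The members and lists were chosen with earlier results of these data known. Values by mouse, or their range in each genotype, are given for members chosen by role, the 5 highest and 3 lowest levels, the 5 largest fold changes in each direction and the 5 largest differences between libraries 1 and 2 and libraries 3 and 4. Other members were singled out after their values were seen.

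Same-numbered libraries deviated together from their genotype means (correlation across genes 0.156 to 0.703 in the 4 pairs), so the numbers pair the libraries by the rule used, over 0.1 in every pair. Libraries with another number on the same side of the split gave 0.0259 to 0.691, so the numbers held little beyond that side. The labels do not say what they mark, and the study's methods give 2 mice per condition in each of 2 experiments but not which. No 2 libraries of a genotype were copies, with a chi-square per gene of at least 8.58. The libraries held 20905502 to 40846651 reads on genes, and each member between 308 and 329435 reads per library. On simulated data for this comparison (13992 genes), limma recovered 86.6% of changes of log2 1 and 100% of those of log2 2, with 5.70% false calls. The simulation left out the shift between libraries 1 and 2 and libraries 3 and 4, also from its dispersion. The main fit to the real libraries holds that shift in its spread, so these rates do not hold for genes that have it. For a genotype difference that differs between the sides (13998 genes) limma recovered 62.2% and 85.9%, with 5.19% false calls. Python 3.11.15 and pandas 2.3.3 were used.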

Additional observations from a re-analysis of the deposited data

Results flagged for a closer look

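Dixon's 95% limit for 4 samples bounds how far the highest or lowest of 4 mice stands from the nearest other mouse. It was passed in 9 of 90 groups (45 genes in each of 2 genotypes). Independent normal values would pass it in about 1 in 20, or 4.5. Each group held 2 libraries from each side of the split, and genes of 1 library are not independent. That rate is therefore not the chance rate of these groups. Of the 9, 5 were *Elmo1*-/- mouse 1, high in each case, with normalized counts of 17310 for *Man2b1*, 6740 for *Fuca1*, 311651 for *Psap*, 5446 for *Ppt1* and 30116 for *Lgmn*. The other 4 were *Elmo1*+/- mouse 4, low at 6338 for *Gm2a* and at 7523 for *Laptm4a*, *Elmo1*-/- mouse 3, low at 13743 for *Lamp2*, and *Elmo1*+/- mouse 3, high at 965 for *Ctns*.

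For 3 genes (6.67%, beside 4.07% of all genes tested) the genotypes stood apart within libraries 1 and 2 and, in the opposite direction, within libraries 3 and 4. Within each of these sides, every *Elmo1*-/- mouse lay above or below both *Elmo1*+/- mice. The log2 differences, *Elmo1*-/- minus *Elmo1*+/-, were −0.63 and 0.19 for *Acp5*, −0.20 and 0.063 for *Sgsh*, and −0.41 and 0.15 for *Smpd1*. The difference between the sides, tested with limma over the 8 libraries, was 0.82 for *Acp5*, 0.26 for *Sgsh* and 0.56 for *Smpd1*, and none passed after adjustment over all genes.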

How the results depend on the processing

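No member was called under any setting run, and the adjusted limma, edgeR or DESeq2 p lay between 0.936 and 1.00, except within libraries 1 and 2, where the smallest was 0.452. With the replicate block, 0 members and 1 gene were called, the median log2 fold change of the members was −0.02, the median SE fell to 0.08 and the interval lay within ±0.5 for 43 of 45 and within ±1 for all 45, *Acp5* and *Arsb* included. The replicate block changed no other call. DESeq2 called 2 genes, *Elmo1* and *Gpr137b-ps*, and leaving out 1 mouse at a time gave 1 to 2. At an unadjusted limma p of 0.05, *Gla* passed without *Elmo1*-/- mouse 1 and *Igf2r* without *Elmo1*-/- mouse 3, and neither passed with adjustment. The number of members lower in libraries 3 and 4 was 8 with equal library totals instead of 4 (17.8%, beside 14.7% of all genes). The median log2 fold change of the members ran from −0.076 to 0.0097 without 1 mouse.

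Leaving out 1 mouse turned the direction of 13 of the 21 named members, 9 of them without *Elmo1*-/- mouse 1 (*Acp5*, *Arsb*, *Cd68*, *Grn*, *Lamp1*, *Lamp2*, *Lgmn*, *Pla2g15* and *Scarb2*) and 1 to 5 without each of the other mice. The log2 fold changes over these settings ran from −0.51 to 0.11 for *Acp5*, −0.67 to 0.20 for *Arsb*, −0.039 to 0.083 for *Cd68*, −0.14 to 0.059 for *Cln3*, −0.10 to 0.12 for *Grn*, −0.12 to 0.10 for *Lamp1*, −0.052 to 0.080 for *Lamp2*, −0.17 to 0.19 for *Lgmn*, −0.15 to 0.0064 for *Mcoln1*, −0.16 to 0.12 for *Pla2g15*, −0.26 to 0.021 for *Psap*, −0.044 to 0.16 for *Scarb2* and −0.28 to 0.047 for *Smpd1*. No other setting that compared the genotypes over both sides of the split turned a direction. Fits within 1 side did, with *Acp5* at 0.19 within libraries 3 and 4 and *Lamp1* at −0.052 within libraries 1 and 2 among them. The cause was not tested.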
